A study of Mus musculus with 6 samples.

Results

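NRF2, its regulators and its partners are 8 genes, Nfe2l2, Nfe2l1, Keap1, Bach1, Sqstm1, Mafg, Mafk and Maff, which were followed here in RNA of mouse small intestinal crypts. They were taken by gene symbol from the annotation of the array, where each had 1 probe set, and they are 8 of the 19505 genes measured. The study compared 2 genotypes on a C57bl/6 background, with 3 arrays each: CSN8ΔIEC mice, taken from the name as mice lacking Cops8 in intestinal epithelial cells, and CSN8fl/fl mice, which carry the loxP-flanked gene without the deletion. By the labels, both genotypes had females aged 16 weeks as replicates 1 and 2 and a male aged 10 weeks as replicate 3. The sample titles call the replicates biological. The sources used here name no Cre driver. They do not say that each sample came from a mouse of its own, so that the spread behind the p-values may be partly technical. Crypts were freed with EDTA from intestine scraped clear of villi. The study asked about antimicrobial peptide production after loss of subunit 8 of the COP9 signalosome, the complex that strips NEDD8 from cullin-RING ubiquitin ligases.

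NRF2, encoded by Nfe2l2, is a transcription factor of the cap'n'collar (CNC) family that switches on genes against oxidants and electrophiles. KEAP1 binds NRF2 and hands it to a cullin 3 ubiquitin ligase for destruction, and oxidants or electrophiles that modify KEAP1 let NRF2 escape, so that NRF2 activity is set largely by protein stability. In the nucleus NRF2 pairs with a small MAF protein (MAFG, MAFK or MAFF) on the antioxidant response element (ARE), where BACH1 competes as a repressor. The autophagy receptor p62, encoded by Sqstm1, can pull KEAP1 away from NRF2, and NFE2L1 is a CNC relative best known for raising proteasome genes when proteasome activity falls.

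The core of the ARE was searched in the RefSeq promoter windows of GRCm38.p6, which run from 250 bases before to 50 bases after a transcript start, because Nfe2l2, Mafg and Sqstm1 are known as ARE targets themselves. The letters searched were TGACNNNGC, on both strands, with no overlap with another motif considered. All 8 genes had at least 1 window, and 4 of them, Nfe2l2, Mafg, Mafk and Maff, held a match; Maff held it in 1 of its 3 windows. Keap1, Bach1, Sqstm1 and the 5 windows of Nfe2l1 held none, which says only that these letters are not in these windows. Of all genes measured, 2354 of the 15691 with a window, or 15.0%, held a match, and of all 32851 windows 12.4% did. The matched stretches are printed 5′ to 3′ on the strand of the gene, with the 9 matched letters in capitals. They stand in the order Nfe2l2 (chr2:75704885-75704913, minus strand, first matched base 240 bases before the start), Mafg (chr11:120633751-120633779, minus strand, 222 bases before), Mafk (chr5:139791513-139791535, plus strand, 13 bases before) and Maff (chr15:79346499-79346527, plus strand, 112 bases before). Each stretch has up to 10 bases on either side of the match, and that of Mafk is cut at the transcript start, as no base from the start onward is printed. In Mafg and Mafk the match lay on the opposite strand and reads GCNNNGTCA.
Nfe2l2: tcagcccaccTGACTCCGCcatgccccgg
Mafg: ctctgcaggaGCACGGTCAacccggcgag
Mafk: gatcccggaaGCGGTGTCAgtac
Maff: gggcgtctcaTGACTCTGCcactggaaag

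The signal of Cops8, the gene deleted in CSN8ΔIEC mice, was 7.68, 7.61 and 7.77 in CSN8ΔIEC replicates 1 to 3 against 8.26, 8.22 and 8.10 in CSN8fl/fl replicates, on the log2 scale of all signals here. The groups did not overlap, and the difference of −0.50 ± 0.11 (SE) did not pass the threshold used throughout, an adjusted p under 0.05 over all genes (adjusted p = 0.0865). The position of its probes relative to the deletion is unknown here, so the signal checks the genotype only in part. The epithelial markers Epcam, Cdh1, Krt8, Krt18, Cldn7 and Vil1 were all bright, with a summed linear signal of 32406 to 35332 in CSN8ΔIEC and 32618 to 33861 in CSN8fl/fl, and 0 of the 6 passed the threshold. The array of CSN8fl/fl replicate 3 stood apart, with a mean correlation with the other arrays of 0.981 against 0.988 to 0.989 for the other 5, and the differences of the 8 genes are given with and without it.

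None of the 8 genes rose or fell in CSN8ΔIEC crypts, in limma's moderated test. Over all genes 0.374% rose and 0.702% fell, 1.08% together, so that a count of 0 among 8 is close to the background. At an unadjusted p under 0.05 there was 1 of 8, Mafg, where 15.0% of all genes lay under that value. The differences, CSN8ΔIEC minus CSN8fl/fl, ran from −0.46 for Maff to 0.43 for Mafg, and their median was 0.0090 against −0.011 over all genes. The smallest difference of any gene that passed the threshold was 0.595 in size, larger than that of each of the 8. Across the 8 genes the 95% intervals, not adjusted for the number of genes, ran from −0.997 at the lower end for Maff to 0.78 at the upper end for Mafg. In 2 of the 8, Nfe2l1 and Mafg, every CSN8ΔIEC value lay above every CSN8fl/fl value, and in 0 did they all lie below. Over all genes the 2 patterns were found in 10.7% and 11.7%, or 22.4% together.

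**Figure D1:**
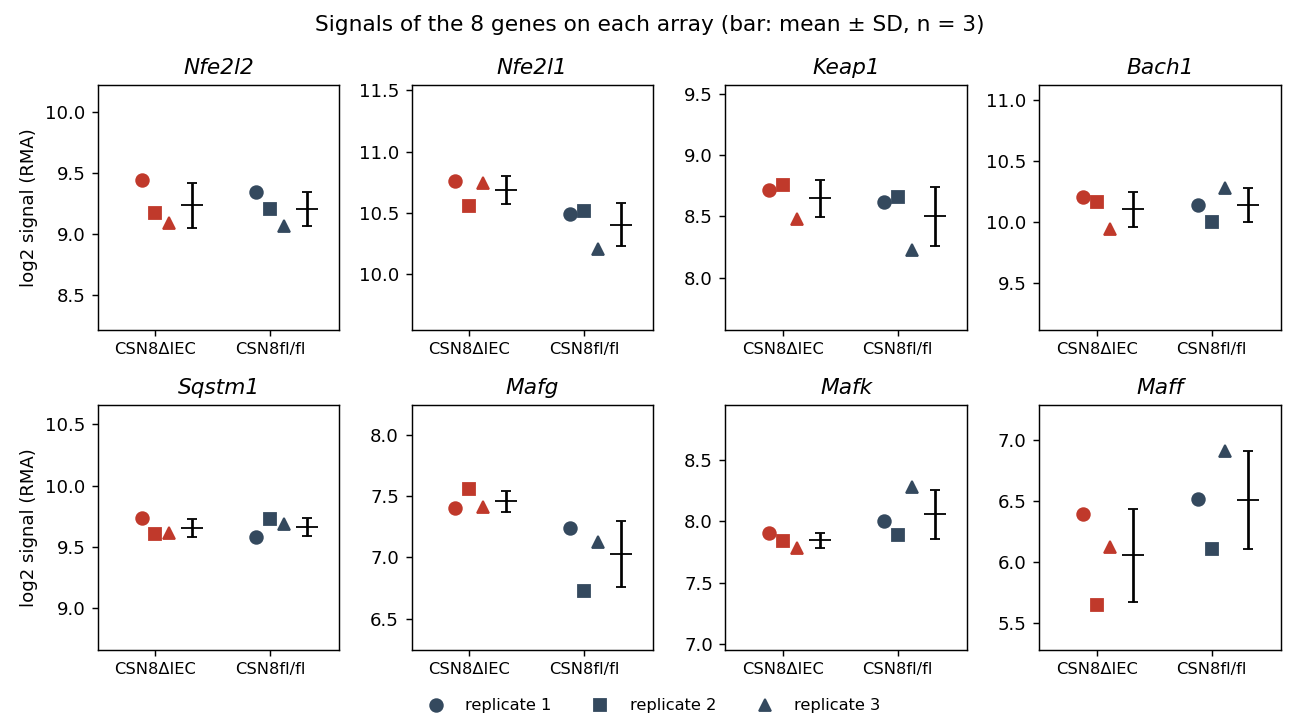
Log2 RMA signal (y axis, the same span in each panel) of the 8 genes on each array, with CSN8ΔIEC in red left of CSN8fl/fl in dark grey. Circles, squares and triangles are replicates 1, 2 and 3, and the bar beside each group is its mean ± SD (n = 3). The groups do not overlap in Nfe2l1 and Mafg and overlap in the other panels.

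Nfe2l2 had signals of 9.44, 9.17 and 9.09 in CSN8ΔIEC replicates 1 to 3, against 9.35, 9.20 and 9.06 in CSN8fl/fl replicates 1 to 3. In both genotypes replicate 1 was the highest array and replicate 3 the lowest, and the groups overlapped almost wholly. The means were 9.23 ± 0.19 in CSN8ΔIEC and 9.20 ± 0.14 in CSN8fl/fl (SD, n = 3 each). The difference was 0.031 ± 0.14 (SE, adjusted p = 0.936), with a 95% interval from −0.28 to 0.35, or 0.821-fold to 1.27-fold. Within same-numbered replicates the differences were 0.098, −0.032 and 0.027. Without CSN8fl/fl replicate 3 the difference was −0.039, and without CSN8ΔIEC replicate 1 it was −0.074.

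Nfe2l1, the CNC factor of the proteasome response, read 10.76, 10.55 and 10.75 in CSN8ΔIEC, against 10.49, 10.51 and 10.20 in CSN8fl/fl. The 2 groups were set apart by a narrow gap between CSN8ΔIEC replicate 2 and CSN8fl/fl replicate 2, and the lowest array was CSN8fl/fl replicate 3. The difference of 0.28 ± 0.13 did not pass the threshold (adjusted p = 0.364, 95% interval −0.018 to 0.58). Without CSN8fl/fl replicate 3 it was 0.18 (adjusted p = 0.569), and between the labelled females alone it was 0.15.

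Keap1, the substrate adaptor that holds NRF2 for cullin 3, read 8.72, 8.76 and 8.48 in CSN8ΔIEC, against 8.61, 8.66 and 8.22 in CSN8fl/fl. Replicate 3 was the lowest array of each genotype, and the groups overlapped. The difference was 0.15 ± 0.15 (adjusted p = 0.684, 95% interval −0.20 to 0.50). Each same-numbered replicate was higher in CSN8ΔIEC, by 0.10, 0.095 and 0.25. Without CSN8fl/fl replicate 3 the difference was 0.012.

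Bach1, the ARE repressor that haem removes from DNA, read 10.20, 10.16 and 9.94 in CSN8ΔIEC, against 10.14, 10.00 and 10.27 in CSN8fl/fl. The replicates labelled male held both the lowest CSN8ΔIEC value and the highest CSN8fl/fl value. The difference was −0.035 ± 0.13 (adjusted p = 0.921, 95% interval −0.33 to 0.26). Same-numbered replicates differed by 0.066, 0.16 and −0.33, so that the labelled females and the labelled males went opposite ways. The test of that contrast, the interaction of genotype with labelled sex and age, did not pass (−0.45 ± 0.23, adjusted p = 0.542). Without CSN8fl/fl replicate 3 the difference was 0.033, and without CSN8ΔIEC replicate 3 it was 0.045.

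Sqstm1, which encodes p62, had the narrowest spread of the 8 within CSN8fl/fl and lay close to the same level in both genotypes. It read 9.74, 9.60 and 9.62 in CSN8ΔIEC, against 9.58, 9.73 and 9.68 in CSN8fl/fl. The difference was −0.013 ± 0.11 (adjusted p = 0.968), and its 95% interval of −0.27 to 0.24, or 0.830-fold to 1.18-fold, was the shortest of the 8. Without CSN8fl/fl replicate 3 the difference was −0.0031.

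The 3 small MAF genes, whose proteins carry no activation domain and serve CNC and BACH factors alike, had differences of both signs. Mafg read 7.40, 7.56 and 7.41 in CSN8ΔIEC, against 7.24, 6.72 and 7.12 in CSN8fl/fl. Its groups did not overlap, and most of the spread lay in CSN8fl/fl, where replicate 2 was low. The means were 7.46 ± 0.086 in CSN8ΔIEC and 7.03 ± 0.27 in CSN8fl/fl (SD, n = 3 each). The difference of 0.43 ± 0.15, or 1.35-fold, was the only one of the 8 whose 95% interval lay to one side of 0 (0.083 to 0.78; adjusted p = 0.239), and 8.64% of all genes had a smaller p. It was 0.28 without CSN8fl/fl replicate 2, which moved it by over 1.5 times, and 0.54 without CSN8fl/fl replicate 1. Leaving out CSN8fl/fl replicate 3 gave 0.48.

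Mafk read 7.91, 7.84 and 7.78 in CSN8ΔIEC, against 8.001, 7.89 and 8.28 in CSN8fl/fl. The groups overlapped between CSN8ΔIEC replicate 1 and CSN8fl/fl replicate 2, and CSN8fl/fl replicate 3 was the highest array. The difference was −0.21 ± 0.13 (adjusted p = 0.491, 95% interval −0.51 to 0.089), and −0.10 without CSN8fl/fl replicate 3. Maff, the stress-inducible small MAF gene, had the widest spread of the 8. It read 6.39, 5.65 and 6.12 in CSN8ΔIEC, against 6.51, 6.11 and 6.91 in CSN8fl/fl. The groups overlapped, with replicate 2 the lowest array of each genotype. The difference was −0.46 ± 0.24 (adjusted p = 0.413, 95% interval −0.997 to 0.084). It was −0.26 without CSN8fl/fl replicate 3 and −0.25 without CSN8ΔIEC replicate 2. Maff was above the 40th percentile of its array, a limit used here to set aside dim genes, on 5 of the 6 arrays, and the other 7 genes were above it on all 6.

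**Figure D2:**
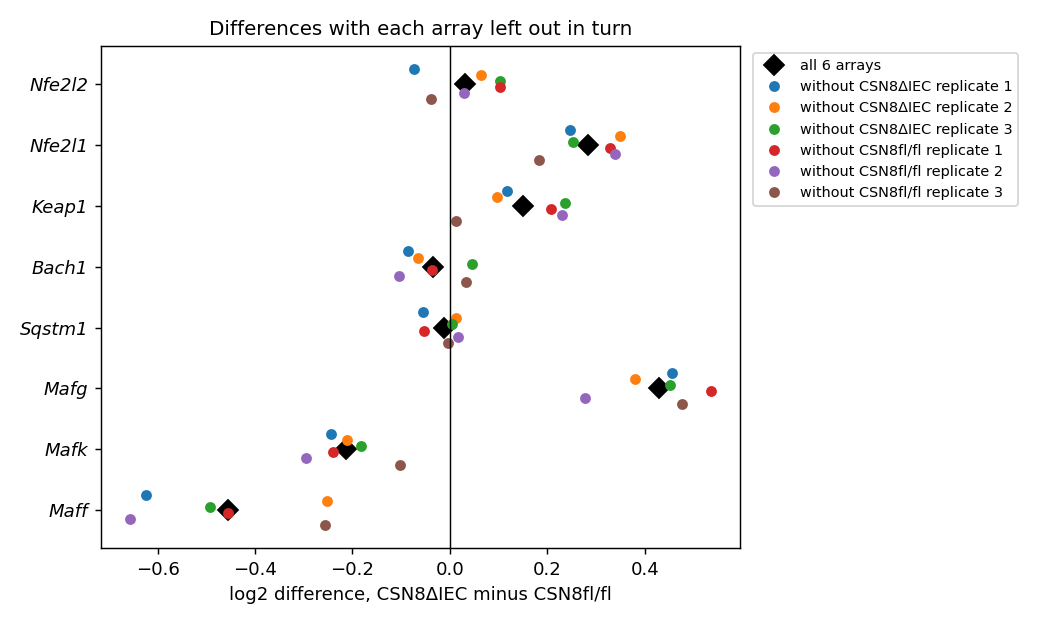
Log2 difference, CSN8ΔIEC minus CSN8fl/fl (x axis), of each of the 8 genes (rows) with all 6 arrays (black diamond) and with each array left out in turn (coloured dots, named in the legend). Nfe2l2, Bach1 and Sqstm1 lie on both sides of 0, Nfe2l1, Keap1 and Mafg stay above it and Mafk and Maff below it; without CSN8fl/fl replicate 3 (brown) Keap1 was at 0.012 and Maff at −0.26.

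Labelled sex and age, which change together, were set against each other over both genotypes. In the labelled males of 10 weeks Keap1 read lower than in the labelled females of 16 weeks, with a difference of −0.34 ± 0.12 (adjusted p = 0.778); it was the 1 gene of the 8 with an unadjusted p under 0.05, and none of the 8 passed the threshold. Over all genes 0.0154% passed it in this comparison, and 6.16% had an unadjusted p under 0.05. The interaction of genotype with labelled sex and age passed the threshold in 0% of all genes in limma, and 10.1% of all genes had an unadjusted p under 0.05. None of the 8 had such a p; the lowest adjusted p among them was that of Bach1 given above. In that model each genotype had 1 array labelled male, so that the spread came from the labelled females.

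Markers of some other cells of the crypt differed between genotypes, where 0.374% of all genes rose and 0.702% fell. Of the Paneth cell markers 3 of 6 fell, with a summed linear signal of 20892 to 36178 in CSN8ΔIEC and 55908 to 57534 in CSN8fl/fl, and of the tuft cell markers 4 of 7 fell, with sums of 506 to 569 in CSN8ΔIEC and 1548 to 5233 in CSN8fl/fl. The 5 proliferation markers measured all lay higher in each CSN8ΔIEC array than in each CSN8fl/fl array, with sums of 10703 to 10905 in CSN8ΔIEC and 5936 to 9231 in CSN8fl/fl, and 0 of the 5 passed the threshold. Of the goblet cell markers 2 of 6 fell, the mucus protein gene Clca1 (−0.80, adjusted p = 0.0284) and the trefoil factor Tff3 (−0.65, adjusted p = 0.0420), with sums of 37172 to 41837 in CSN8ΔIEC and 46700 to 54675 in CSN8fl/fl. Of the 6 stroma and muscle markers 1 rose, the smooth muscle actin Acta2 (0.66, adjusted p = 0.0367), with sums of 568 to 624 in CSN8ΔIEC and 499 to 564 in CSN8fl/fl. Of the 6 lymphocyte markers 0 passed, with sums of 2210 to 3191 in CSN8ΔIEC and 2912 to 4783 in CSN8fl/fl. Among the enterocyte, stem cell, B and plasma cell, myeloid and endothelial markers measured, 0 passed as well. In RNA from a mixture of cells, fewer cells of a type and less RNA per cell cannot be told apart, and the part of these shifts in the differences of the 8 genes was not tested. Beside Maff, 13 immediate-early and heat shock genes had a summed linear signal of 4136 to 6033 in CSN8ΔIEC and 4850 to 7028 in CSN8fl/fl, and 0 of them passed the threshold. The 3 with the smallest p were Zfp36 at −0.60 (adjusted p = 0.119), Dusp1 at −0.63 (adjusted p = 0.206) and Fos at −0.51 (adjusted p = 0.260). The median difference of the 13 was −0.10, and 4 of them lay above 0, up to 0.46 for Hspa1b. The part of the 13 genes in the Maff values was not tested.

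Many target genes of NRF2 rose. Of 43 target genes measured of 47 listed, 19 rose and 0 fell in CSN8ΔIEC crypts, where 0.374% of all genes rose. Their median difference was 0.58, against −0.011 over all genes, and 29 of the 43 had groups that did not overlap, all higher in CSN8ΔIEC, where 10.7% of all genes did. The targets were listed with earlier results of these data known, so the count is a description of the list. The 95% interval of Nfe2l2 ended at 0.35 and that of Mafg, the highest of the 8 genes, at 0.78. The 19 differences of the targets that rose ran from 0.88 for Abcc1, an organic anion exporter, to 3.82 for Cbr3, a carbonyl reductase. These 19 were picked for passing the test. Cbr3 read 10.34, 9.33 and 9.40 in CSN8ΔIEC, against 5.41, 7.26 and 4.93 in CSN8fl/fl. Its CSN8fl/fl values in replicates 1 and 3 lay below the limit for dim genes. The 95% interval of Abcc1 began at 0.56, below the end of that of Mafg. The 24 targets not past the threshold ran from −0.30 for Hmox1 to 0.66 for Mgst1. Whether targets and regulators differed in their response was not tested.

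**Figure D3:**
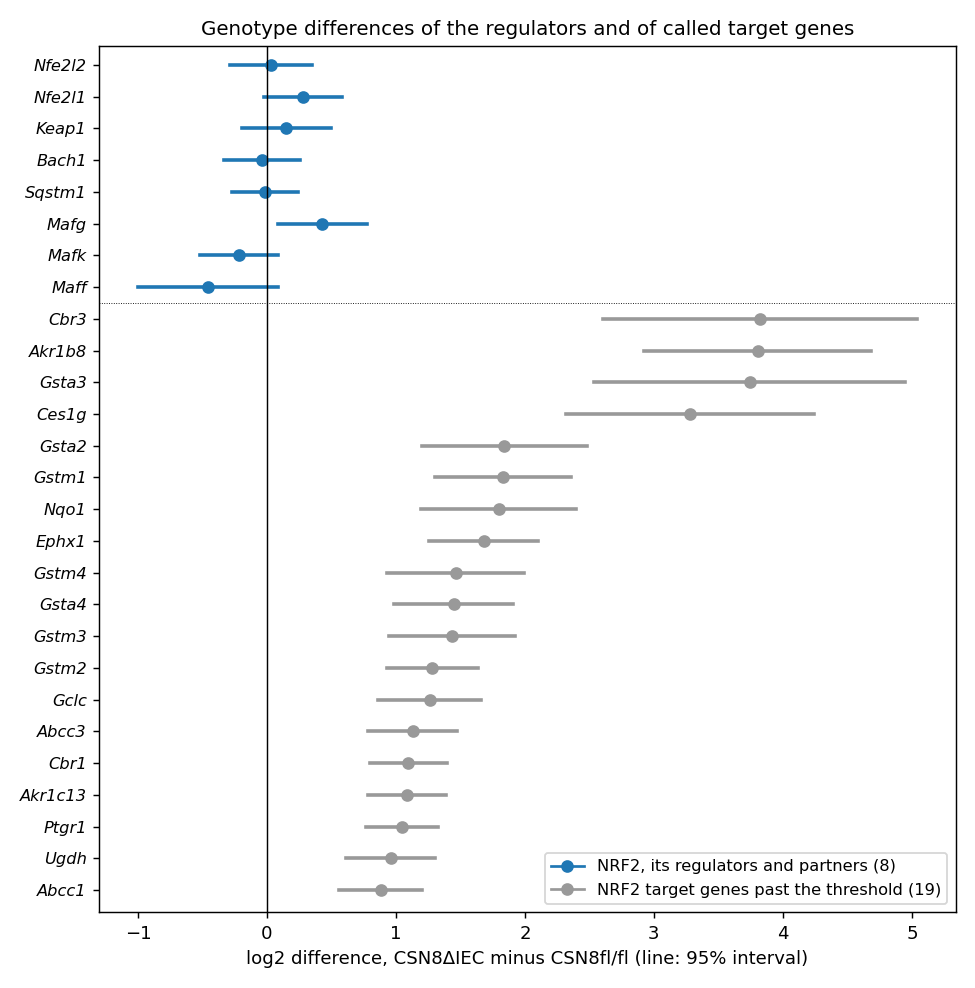
Log2 difference, CSN8ΔIEC minus CSN8fl/fl (x axis), with its 95% interval, of the 8 genes (blue, above the dotted line) and of the 19 NRF2 target genes that passed the threshold (grey). The points of the 8 genes lie between −0.46 and 0.43 and those of the targets between 0.88 and 3.82; the grey genes were picked for passing the test.

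By role, most of the targets that rose were enzymes of conjugation and of carbonyl metabolism. Of the glutathione S-transferases, which join glutathione to electrophiles, 7 of 9 rose, from 1.28 for Gstm2 to 3.74 for Gsta3. Gsta3 read 12.20, 11.83 and 11.87 in CSN8ΔIEC, against 8.02, 9.64 and 7.01 in CSN8fl/fl. Gsta2 rose by 1.84, Gstm1 by 1.83, Gstm4 by 1.46, Gsta4 by 1.45 and Gstm3 by 1.43; the genes of each family are alike in sequence, and cross-hybridisation among them was not examined. Of the quinone, carbonyl and epoxide enzymes 8 of 10 rose. Nqo1, the quinone reductase commonly read as a marker of NRF2 activity, was at 10.75, 10.46 and 10.23 in CSN8ΔIEC, against 8.77, 9.20 and 8.08 in CSN8fl/fl, with a difference of 1.80 ± 0.26 (adjusted p = 0.0194). Akr1b8, an aldo-keto reductase, had the smallest adjusted p of the 19 (3.81 ± 0.39, adjusted p = 0.00581), and Ces1g, a carboxylesterase, rose by 3.28. In CSN8fl/fl Ces1g read 5.89, 7.01 and 5.78, with replicates 1 and 3 below the limit for dim genes. The epoxide hydrolase Ephx1 rose by 1.68, Cbr1 by 1.10, Akr1c13 by 1.09 and the prostaglandin reductase Ptgr1 by 1.05.

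In glutathione synthesis and recycling 1 of 6 rose, Gclc, the catalytic subunit of the rate-limiting ligase, which read 11.27, 10.62 and 10.71 in CSN8ΔIEC, against 9.56, 9.57 and 9.69 in CSN8fl/fl (1.26 ± 0.18, adjusted p = 0.0166). Of the export and sugar donor genes 3 of 6 rose: Abcc3, an organic anion exporter, by 1.13, Ugdh, which makes the donor of glucuronic acid, by 0.96, and Abcc1 by 0.88. The other target groups had 0 genes past the threshold. In the thioredoxin and peroxiredoxin system, 0 of 4, Txnrd1 differed by 0.47 (adjusted p = 0.113), Txn1 by 0.23 (adjusted p = 0.364) and Prdx1 by 0.049 (adjusted p = 0.877). In NADPH supply, 0 of 4, Idh1 differed by 0.59 (adjusted p = 0.0684), Pgd by 0.36 (adjusted p = 0.318) and Taldo1 by 0.27 (adjusted p = 0.408). In haem breakdown and iron storage, 0 of 4, the ferritin light chain Ftl1 differed by 0.34 (adjusted p = 0.275) and the biliverdin reductase Blvrb by 0.16 (adjusted p = 0.640). Hmox1, the haem oxygenase held down by BACH1, differed by −0.30 (adjusted p = 0.510). It read 6.01, 5.69 and 5.92 in CSN8ΔIEC, against 5.76, 6.22 and 6.52 in CSN8fl/fl. Every CSN8ΔIEC value and that of CSN8fl/fl replicate 1 lay below the limit for dim genes, which was 6.05 to 6.12 over the arrays. Of the 43 targets 39 lay above 0, among them Srxn1 at 0.037 (adjusted p = 0.944). Besides Hmox1, those below 0 were Osgin1 (−0.29, adjusted p = 0.638), Me1 (−0.17, adjusted p = 0.913) and Aldh3a1 (−0.053, adjusted p = 0.883). Aldh3a1 lay below the limit for dim genes on every array. Same-numbered replicates differed by 0.091, 0.29 and −1.26 in Osgin1 and by 1.54, −0.42 and −1.63 in Me1. In Srxn1 they differed by 0.51, 0.20 and −0.60. Each of these genes was lowest in replicate 3, whose CSN8fl/fl array stood apart, and the part of that array was not tested.

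With 1 array left out, many of these calls were lost while the differences kept most of their size. Over the 19 genes and 6 arrays they lay between 80.5% and 118.9% of the log2 difference with all arrays. Each such fit shares its arrays with the full fit, in which the 19 were picked, so sizes near the full ones are no separate check. Akr1b8, Ces1g, Ephx1 and Gstm2 passed without any 1 array. Without CSN8ΔIEC replicate 1, Gclc and these 4 passed and the other 14 did not (adjusted p from 0.0529 to 0.127), at 86.5% to 98.3% of their difference with all arrays. Without CSN8ΔIEC replicate 2 the 6 genes Gsta2, Gsta3, Gstm3, Gstm4, Nqo1 and Ugdh did not (adjusted p up to 0.0805). Without CSN8ΔIEC replicate 3 the 6 genes Abcc1, Abcc3, Gsta2, Gsta3, Gstm3 and Ugdh did not pass (adjusted p up to 0.108). Ugdh did not pass without CSN8fl/fl replicate 1 (adjusted p = 0.0532), nor did Abcc1, Gclc and Ugdh without CSN8fl/fl replicate 2 (adjusted p up to 0.0866) or Abcc1, Gsta2, Gstm3 and Gstm4 without CSN8fl/fl replicate 3 (adjusted p up to 0.0804). Without CSN8fl/fl replicate 3 Nqo1 differed by 1.49 and Akr1b8 by 3.35. Cbr3 and Gsta3 differed by 4.52 and 4.45 without CSN8fl/fl replicate 2 and by 3.35 and 3.14 without CSN8fl/fl replicate 3.

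The ARE core searched in the promoter windows was found in 2 of the 15 targets that rose and have a window (13.3%), Gsta3 and Ugdh. It was found in 9 of the 21 with a window that did not pass (42.9%), where 15.0% of all genes with a window held it. Whether these shares differ was not tested, and sites more than 250 bases before the start were not searched. The matched stretches of Gsta3 (chr1:21240454-21240482, plus strand, 121 bases before the start) and Ugdh (chr5:65435956-65435984, minus strand, 132 bases before the start, which has a second match closer to the start) are shown to set beside those of Nfe2l2 and the small MAF genes.
Gsta3: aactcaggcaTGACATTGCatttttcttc
Ugdh: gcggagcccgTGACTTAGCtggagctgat

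The wider machinery around the 8 genes gave no calls. Of 68 genes measured of 72 listed, 0 rose and 0 fell in limma, where 1.08% of all genes passed, and 12 had an unadjusted p under 0.05, where 15.0% of all genes did. Their median difference was −0.048. Of the 14 ubiquitin ligase components and kinases that act on NRF2, the smallest p was that of Dcaf11, a cullin 4 receptor of NRF2 (difference −0.31, adjusted p = 0.271), followed by the kinase Gsk3a (−0.28, adjusted p = 0.334) and Cul4b (0.30, adjusted p = 0.369). Cul3, the scaffold that KEAP1 binds, read 9.54, 9.56 and 9.44 in CSN8ΔIEC, against 9.67, 9.51 and 9.48 in CSN8fl/fl, a difference of −0.041 ± 0.12 (adjusted p = 0.893); it was named after its value was seen.

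Of the 9 other CNC, BACH, large MAF and bZIP factors, Maf differed by −0.63 (adjusted p = 0.113), Jun by −0.42 (adjusted p = 0.2995) and Jund by −0.26 (adjusted p = 0.466). Maf, a large MAF factor with its own activation domain, read 9.80, 9.86 and 9.59 in CSN8ΔIEC, against 10.20, 10.26 and 10.69 in CSN8fl/fl, and its groups did not overlap. Of the 8 coactivators and repressors, the nuclear receptor genes Rara and Rxra differed by −0.37 and −0.35 (adjusted p = 0.255 and 0.280) and Smarca4 by 0.16 (adjusted p = 0.671). Of the 9 other proteins that bind KEAP1 or NRF2, Brca1 differed by 0.73 (adjusted p = 0.113), the sestrin Sesn1 by −0.50 (adjusted p = 0.188) and Palb2 by 0.52 (adjusted p = 0.279). Brca1 passed without CSN8fl/fl replicate 1 (0.90, adjusted p = 0.0493), which gave the list 1 call.

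Around p62, NFE2L1 and BACH1 there were likewise 0 calls. Of 14 autophagy receptors and p62 partners, the LC3 family genes Map1lc3b, Gabarapl2 and Gabarap differed by −0.31, −0.32 and −0.21 (adjusted p = 0.326, 0.349 and 0.418). Of 6 genes that process NFE2L1, the glycanase gene Ngly1 differed by −0.28 (adjusted p = 0.367), the ubiquitin ligase receptor Fbxw7 by 0.36 (adjusted p = 0.369) and Sel1l by −0.22 (adjusted p = 0.483). Of 8 genes of BACH1 turnover and haem, the BACH1 ligase receptor Fbxl17 differed by 0.38 (adjusted p = 0.278), the exportin Xpo1 by 0.44 (adjusted p = 0.3004) and the haem transporter Slc48a1 by 0.47 (adjusted p = 0.307).

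**Figure D4:**
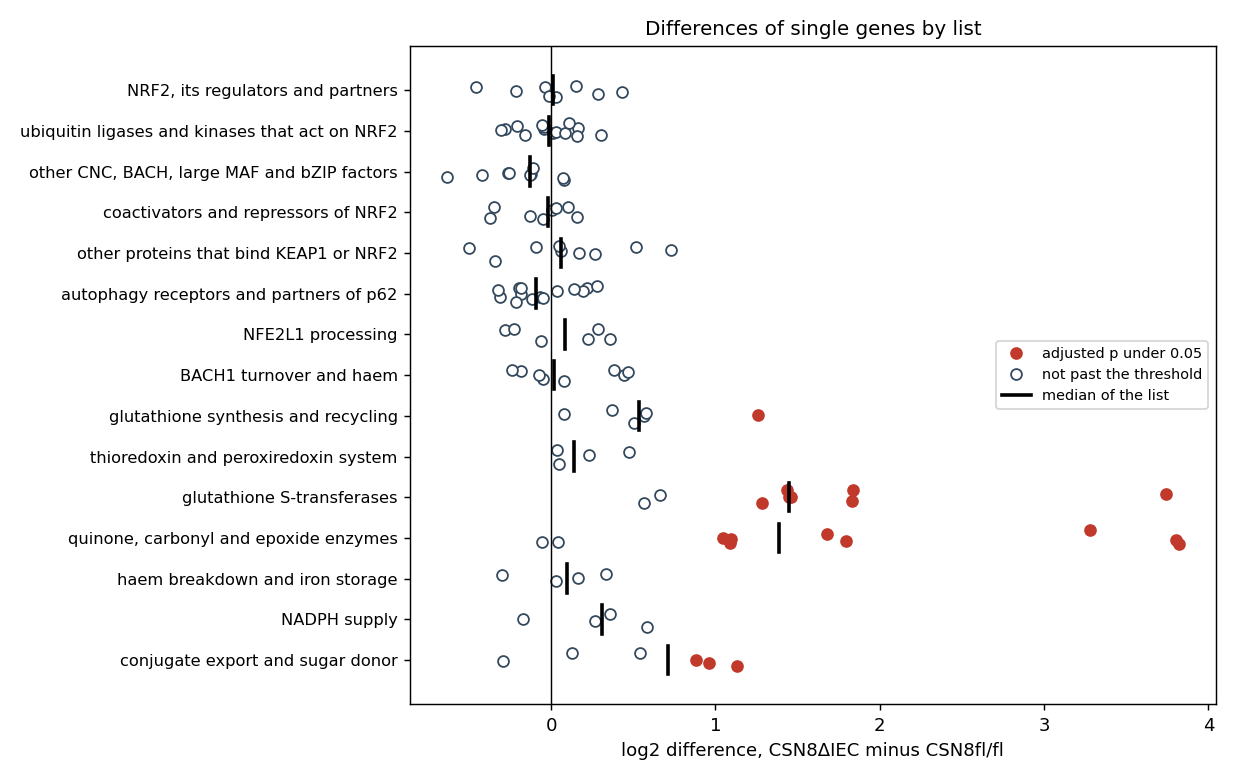
Log2 difference, CSN8ΔIEC minus CSN8fl/fl (x axis), of every measured gene of each list (rows), with genes past the threshold in red, the others open, and the median of each list as a black bar. The 8 genes (top row) and the 7 machinery lists below them hold no red point, and the 19 red points lie in 4 of the 7 target lists, all above 0; points are spread up and down within a row only to show them.

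The array pattern most like that of Nfe2l2 was sought among 9746 genes with at least the median mean signal, by the root mean square difference of the mean-centred log2 values over the 6 arrays. The nearest were Acbd3 (0.035), Zbtb40 (0.036) and Lratd2 (0.038). Being picked by these same values, they are like Nfe2l2 by the rule of the search. Each had its highest value of either genotype in replicate 1, as Nfe2l2 did, and differences between genotypes of 0.017, 0.075 and 0.061. Among the 8 genes themselves the nearest to Nfe2l2 was Sqstm1 at 0.14, and the farthest was Maff at 0.41.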

How the data were processed

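Total RNA of small intestinal crypts was hybridised to Affymetrix arrays, 1 array per sample. The authors deposited log2 signals per probe set, made with RMA and Partek 6.6, per the submitters' processing notes, which name neither settings nor a genome build. RMA sets all arrays to one distribution, so a change shared by most genes would not show, and bright signals respond less to a change in RNA. Of 22206 probe sets, 19572 had 1 gene symbol in the platform annotation, 0 had several and 2634 were unnamed. For 55 genes with several probe sets the one with the highest mean was kept, leaving 19505 genes. Arrays have no read depth; the 6 arrays limit the precision, and their medians differed by at most 0.058.

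Genotypes were compared with limma 3.58.1 in R 4.3.3 (lmFit, eBayes, 8.85 total degrees of freedom), with Benjamini-Hochberg adjustment over all genes and a threshold of 0.05, two-sided. The code was tested on simulated data. Labelled sex and age were added as a covariate and as an interaction. Members and lists were chosen with earlier results of these data known. Named were the 8 members, Cops8, every listed pathway gene past the threshold, the 3 smallest p of lists without one, and the 3 genes nearest to Nfe2l2. Cul3, Mgst1, Srxn1, Osgin1, Me1 and Aldh3a1 were named after their values were seen. Listed genes without a named probe set were not analysed here. The main fit did not pair samples by replicate number, though same-numbered replicates share labelled sex and age. Promoter sequences are RefSeq's (GRCm38.p6).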

Additional observations from a re-analysis of the deposited data

How the results depend on the processing

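In 13 alternative settings none of the 8 genes passed the threshold. The differences could change only where arrays were left out or array medians set equal, and the other settings kept them by design. Where they could change, Nfe2l1, Keap1 and Mafg stayed above 0 and Mafk and Maff below it. The other 3 genes, close to 0, changed sign: Sqstm1 was at 0.012 with array medians set equal and 0.015 in labelled females alone, where Bach1 was at 0.11. With 1 array left out, the differences ran from −0.074 to 0.10 for Nfe2l2, 0.18 to 0.35 for Nfe2l1, 0.012 to 0.24 for Keap1, −0.10 to 0.045 for Bach1, −0.055 to 0.018 for Sqstm1, 0.28 to 0.54 for Mafg, −0.30 to −0.10 for Mafk and −0.66 to −0.25 for Maff. The 19 target genes that rose were 5 to 18 with 1 array left out, 22 with dim genes filtered out and 4 in labelled females alone, where 2 samples stood against 2. The machinery calls were 0 to 1 with 1 array left out. Over all genes, 73 rose and 137 fell; these were 16 to 88 and 25 to 140 with 1 array left out, 21 and 76 in labelled females alone, 118 and 198 with dim genes filtered out and 114 and 184 with a trended, robust variance prior. With the replicate number as a block, 18 of the targets rose (Ugdh did not, adjusted p = 0.0612), 69 genes rose and 133 fell, and Mafg had an adjusted p of 0.309 and Maff of 0.275. Deviations from the group means correlated at 0.117, −0.024 and 0.038 between same-numbered samples of the 2 genotypes. Between differently numbered ones they ran from −0.149 to 0.096. With 3 arrays a genotype these values cannot settle whether samples were paired. Cbr3 and Gsta3 did not pass with the trended, robust prior (adjusted p = 0.0623 and 0.0802). The causes of these changes were not tested. Settings that leave some samples or genes out also hold fewer of them. With 3 arrays a genotype, the smallest difference of a gene that passed was 0.595 in size, above that of each of the 8 genes.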
